A study of Mus musculus with 3 samples.

Results

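Dlk1 and 9 further imprinted genes that act on growth (Igf2, Grb10, Cdkn1c, Plagl1, Peg3, Ndn, Mest, Meg3 and H19) were followed on the arrays of 3 lines of OP9 cells. Every probe that the platform's gene table names for one of these genes was taken, with Meg3 listed under its older symbol Gtl2. This gave 10 probes, 1 for each gene, of 23473 probes on the array. The genes were chosen with their intensities on these arrays known, so the values below describe them and test nothing.

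OP9 stroma is used to grow blood cells from stem and progenitor cells, and OP9-DL to turn them towards T cells. RNA of each line was labelled with Cy5 and hybridised to 1 array. OP9-DL is the OP9 line expressing both GFP and Delta-like 1, a Notch ligand, OP9-GFP expresses GFP alone, and OP9 is the line without either. All 3 share their origin, a stromal line from the skull cap of a newborn B6C3Fe-a/a-Csf1op/Csf1op mouse, whose mutation removes working macrophage colony-stimulating factor, and all 3 were grown in the same medium with serum and received no treatment. How GFP and Delta-like 1 were brought into the cells, and whether a line is 1 clone or a pool, was not stated in the labels. With 1 array per line there is no replicate, error or test, and whatever else differs between the cultures cannot be told apart from Delta-like 1 or GFP.

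An imprinted gene is read mainly from the copy inherited from 1 parent, under control regions whose DNA methylation differs between the parental copies. Many imprinted genes are active in the fetus and in stem or progenitor cells and are turned down after birth. Dlk1, Igf2, Peg3, Mest, Plagl1 and Ndn are read from the paternal copy in the mouse, and Meg3, H19 and Cdkn1c from the maternal one, while the parental copy read for Grb10 depends on the tissue. In preadipocytes and bone marrow stroma DLK1 is known as a brake on fat cell formation.

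H19 and Mest, both high in OP9-DL cells, are also host transcripts of microRNAs, and the mature sequences are shown here because they are cut from or lie within these transcripts. They are given from RefSeq (GRCm38.p6) with the seed, bases 2 to 8, in capitals. The array values below are for the host genes, and the microRNAs themselves were not analysed here.
mmu-miR-675-5p, in H19, chr7:142577112-142577133, minus strand: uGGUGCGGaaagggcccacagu
mmu-miR-675-3p, in H19, chr7:142577078-142577099, minus strand: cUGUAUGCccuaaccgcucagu
mmu-miR-335-5p, in Mest, chr6:30741314-30741336, plus strand: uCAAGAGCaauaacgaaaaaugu
mmu-miR-335-3p, in Mest, chr6:30741354-30741375, plus strand: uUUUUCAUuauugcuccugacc
No seed is shared among these microRNAs.

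The 250 bases before a RefSeq start are shown for Dlk1, Plagl1 and Mest, which stood high on the same array, so that their promoters can be compared. Each is read 5′ to 3′ on the strand of the gene (GRCm38.p6, plus strand), with every CG pair, the site of DNA methylation, in capitals.
Dlk1, chr12:109452573-109452822: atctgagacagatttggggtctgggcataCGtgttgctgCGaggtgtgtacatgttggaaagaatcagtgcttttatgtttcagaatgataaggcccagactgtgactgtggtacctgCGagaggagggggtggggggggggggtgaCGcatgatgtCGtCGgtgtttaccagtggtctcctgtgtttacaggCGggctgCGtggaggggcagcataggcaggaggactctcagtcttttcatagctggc
Plagl1, chr10:13090582-13090831: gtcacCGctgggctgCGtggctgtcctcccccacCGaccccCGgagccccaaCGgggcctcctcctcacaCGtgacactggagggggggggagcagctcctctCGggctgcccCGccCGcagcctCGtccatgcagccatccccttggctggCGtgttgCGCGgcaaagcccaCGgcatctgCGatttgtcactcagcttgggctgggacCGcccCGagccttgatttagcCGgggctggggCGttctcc
Mest, upstream start, chr6:30733256-30733505: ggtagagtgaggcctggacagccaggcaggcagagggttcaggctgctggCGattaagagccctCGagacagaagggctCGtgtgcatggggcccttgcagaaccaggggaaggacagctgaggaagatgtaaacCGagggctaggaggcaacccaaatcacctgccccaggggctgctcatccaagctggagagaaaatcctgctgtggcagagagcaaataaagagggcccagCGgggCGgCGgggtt
Mest, downstream start, chr6:30737800-30738049: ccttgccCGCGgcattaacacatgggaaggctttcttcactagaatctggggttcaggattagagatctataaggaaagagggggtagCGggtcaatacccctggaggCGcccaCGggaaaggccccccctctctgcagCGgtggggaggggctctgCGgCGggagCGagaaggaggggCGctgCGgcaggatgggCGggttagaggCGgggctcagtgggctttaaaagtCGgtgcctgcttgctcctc

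These windows differed in CG pairs. The Plagl1 window held 19, the downstream Mest window 14, the upstream Mest window 7 and the Dlk1 window 8, against a median of 6 over all 32851 RefSeq windows of this length. RefSeq windows matched 8 of the 10 genes, and H19, also high in OP9-DL cells, and Cdkn1c had none. There were 15 windows in all. Short motifs, none of which contains another, were searched in them on both strands. The GC box, GGGCGG, lay in 7 of the 15 windows, among them those of Plagl1 and Mest, and in 32.7% of all windows. Some genes have several windows, and those of the downstream Mest start overlap almost wholly, so the windows are not independent.

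The core bound by the Notch effector RBPJ, searched as GTGGGAA, lay in 1 window, of Igf2, and in 5.42% of all windows. A GC-rich palindrome like those described for PLAGL1, searched as GGGGCCCC, lay in 1 window, of Peg3, and in 0.889% of all windows.

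The TATA box, searched as TATAAA, lay in 1 window, of Meg3, and in 12.4% of all windows. A match is only a run of letters, and the Dlk1 window held none of these 4 motifs.

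The authors scaled the intensities, and the median probe of each array stands at 20. A probe was compared when it had a value on all 3 arrays and its mean log2 intensity reached the 25th percentile, an intensity of 6.13, which left 15581 probes. Of the 10 genes, 8 were compared and Peg3 and Ndn fell below this limit. Dlk1 and Cdkn1c passed through the arrays on which they were bright, as did Igf2, so a count over the genes that passed says less than the values of each gene. A gene is called higher or lower at 2-fold or more between 2 arrays.

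The labels were checked first. The probe for Dll1, the gene of Delta-like 1, read 333.3 in OP9-DL cells, 20.5 in OP9-GFP cells and 14.0 in OP9 cells. Of 12 stromal markers, between 10 and 11 reached the brightness limit on each array, with Vim, Col1a2 and Cxcl12 bright on all 3 and Thy1 below the limit on all 3. Other stromal markers differed: Pdgfra, a receptor of mesenchymal cells, had 127.1 in OP9-DL cells, 166.1 in OP9-GFP cells and 800.6 in OP9 cells, and was 6.30-fold lower in OP9-DL cells and 4.82-fold lower in OP9-GFP cells than in OP9 cells. Of the collagens, Col1a1 had 557.0, 712.9 and 269.3 on these arrays and Col3a1 had 195.9, 936.4 and 660.5, and the part of these markers in the results was not tested. Of 16 blood and mast cell markers, 8 reached the limit in OP9-DL cells, 7 in OP9-GFP cells and 6 in OP9 cells. Their summed intensity was 1097 in OP9-DL cells, 173.3 in OP9-GFP cells and 199.5 in OP9 cells. Without Tpsab1, a mast cell tryptase, and Cd48, a blood cell surface protein, the sums were 163.4, 161.3 and 176.8 in the same order of arrays. The defining marker Ptprc had 2.8, 2.5 and 2.1 on these arrays, and Kit and Fcer1a were blank or at 1.6. Of the other mast cell markers, Cpa3 had 6.7, 8.1 and 4.9 and Mcpt4 had 19.8, 17.8 and 19.1, while Tpsb2 and Ms4a2 stayed below the limit. Cd68, Laptm5, Csf1r and Cd14 reached the limit on all 3 arrays, and Cd14 was highest in OP9 cells (23.0, 34.0 and 55.6). Tpsab1 had 818.9, 9.0 and 20.6 and Cd48 had 114.4, 3.0 and 2.1, so both were high in OP9-DL cells together with Dlk1, Mest, Plagl1 and H19, and their part in the results was not tested. The summed intensity of 8 endothelial and epithelial markers was 40.6 in OP9-DL cells, 38.8 in OP9-GFP cells and 49.6 in OP9 cells. In these bulk samples fewer cells that make an RNA and less RNA per cell cannot be told apart.

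**Figure D1:**
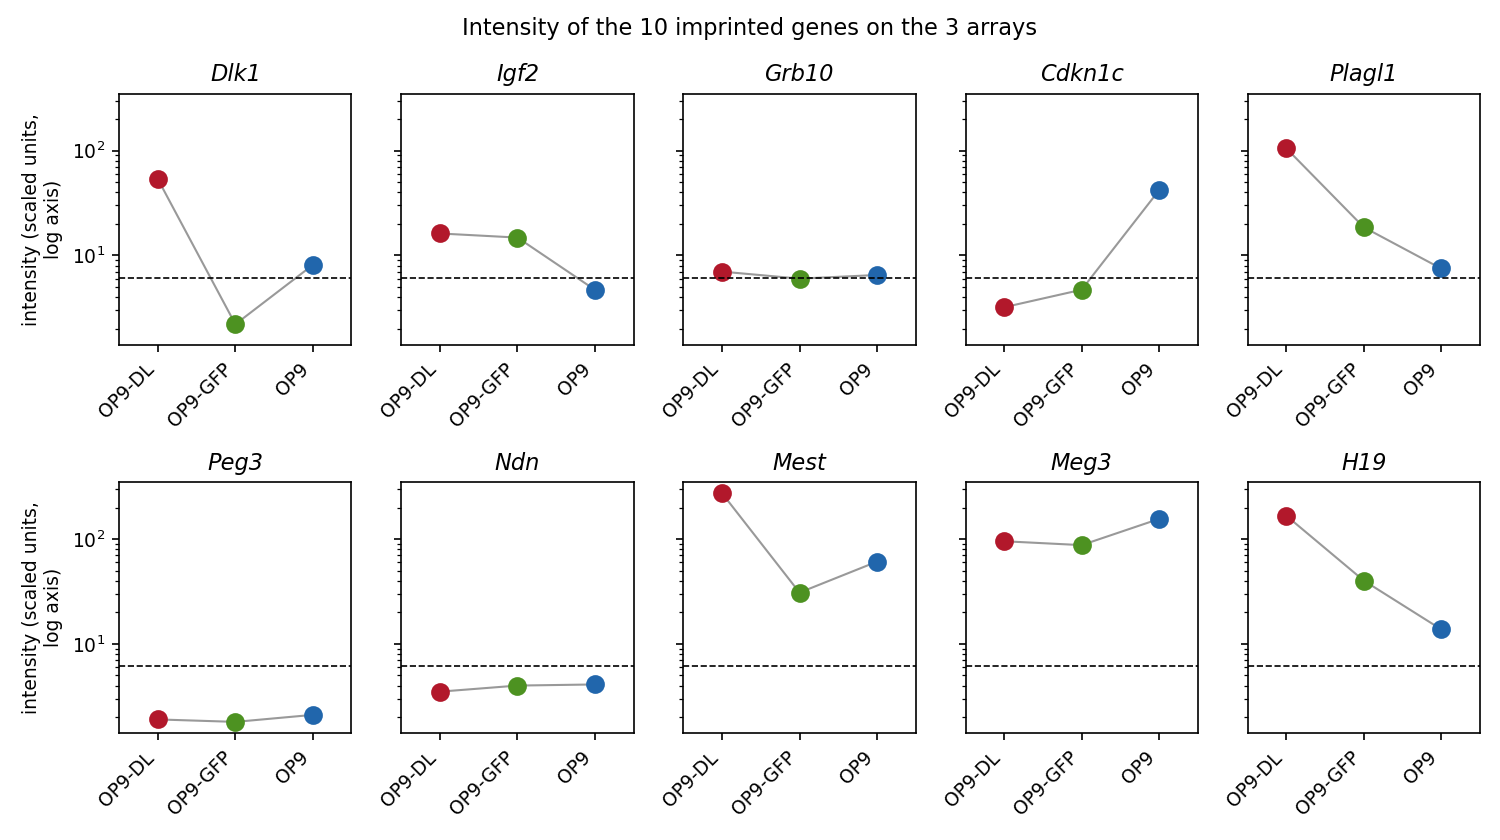
Intensity (scaled units, log axis) of the 10 imprinted genes on the OP9-DL, OP9-GFP and OP9 arrays, 1 point per array, with the brightness limit of 6.13 as a dashed line. Dlk1, Plagl1, Mest and H19 were highest in OP9-DL cells, Cdkn1c in OP9 cells, and Peg3 and Ndn lay below the limit on all 3; levels can be compared within a gene only, since probes differ in how brightly they report.

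Among the growth ligands, Dlk1 and Igf2 had different patterns. Dlk1, a membrane protein of the Delta family that lacks the domain by which classical ligands activate Notch, had 53.2 in OP9-DL cells, 2.2 in OP9-GFP cells and 8.1 in OP9 cells. It was 24.2-fold higher in OP9-DL cells than in the OP9-GFP line. The OP9-GFP reading lay below the brightness limit, and with it raised to that limit the difference was 8.68-fold. Against the OP9 array Dlk1 was 6.57-fold higher in OP9-DL cells.

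On the OP9-GFP array Dlk1 was 3.68-fold lower than in OP9 cells. Both readings are near or below the limit, and with the dim one raised to it the difference was 1.32-fold, under the threshold. The order of the levels was OP9-DL, OP9 and OP9-GFP, with the step between the last 2 resting on dim values.

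Igf2, the fetal insulin-like growth factor, had 16.2 in OP9-DL cells, 14.8 in OP9-GFP cells and 4.7 in OP9 cells. Both lines with GFP thus stood above the parental line, by 3.45-fold for OP9-DL and 3.15-fold for OP9-GFP, or 2.64-fold and 2.41-fold with the OP9 reading raised to the limit. Between OP9-DL and OP9-GFP cells Igf2 differed by 1.09-fold.

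Downstream of the growth receptors, Grb10 was dim and close on all 3 arrays. It encodes an adaptor that binds insulin and IGF1 receptors and dampens their signal, and had 7.0 in OP9-DL cells, 6.0 in OP9-GFP cells and 6.5 in OP9 cells. Cdkn1c, the cyclin-dependent kinase inhibitor p57, had 3.2 in OP9-DL cells, 4.7 in OP9-GFP cells and 41.8 in OP9 cells. The parental array stood apart: Cdkn1c was 13.1-fold lower in OP9-DL cells and 8.89-fold lower in OP9-GFP cells than in OP9 cells. With the dim readings raised to the limit both differences were 6.82-fold, and between OP9-DL and OP9-GFP cells both readings lay below it.

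Of the nuclear proteins, Plagl1 differed and Peg3 and Ndn stayed dim. Plagl1, or ZAC1, is a zinc finger transcription factor that in the mouse acts on other imprinted genes, among them Igf2, H19 and Cdkn1c. It had 105.3 in OP9-DL cells, 18.6 in OP9-GFP cells and 7.5 in OP9 cells. It was 5.66-fold higher in OP9-DL cells than in the OP9-GFP line, 14.0-fold higher than in OP9 cells, and 2.48-fold higher in OP9-GFP cells than in OP9 cells. All 3 readings were above the brightness limit, so these folds rest on measured values on both sides.

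Peg3, a zinc finger protein of progenitor cells, had 1.9 in OP9-DL cells, 1.8 in OP9-GFP cells and 2.1 in OP9 cells. Ndn, which encodes necdin, a growth suppressor of the MAGE family, had 3.5, 4.0 and 4.1 on the same arrays. Neither reached the limit on any array, and at this brightness no difference can be read.

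Mest, a membrane enzyme of the alpha/beta hydrolase fold that rises in expanding fat tissue, had 273.7 in OP9-DL cells, 30.9 in OP9-GFP cells and 61.0 in OP9 cells. It was 8.86-fold higher in OP9-DL cells than in the OP9-GFP line and 4.49-fold higher than in OP9 cells. On the OP9-GFP array it lay 1.97-fold below the OP9 array, just under the threshold. Mest, like Dlk1, thus had its lowest reading in OP9-GFP cells, and all of its readings were above the brightness limit.

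The imprinted long noncoding RNAs H19 and Meg3 differed in pattern. H19, which lies beside Igf2 and shares its enhancers, had 167.6 in OP9-DL cells, 40.3 in OP9-GFP cells and 13.8 in OP9 cells. It was 4.16-fold higher in OP9-DL cells than in the OP9-GFP line, 12.1-fold higher than in OP9 cells, and 2.92-fold higher in OP9-GFP cells than in OP9 cells. Meg3, which lies beside Dlk1 and is read from the other parental copy, had 95.6 in OP9-DL cells, 87.8 in OP9-GFP cells and 156.1 in OP9 cells. No difference of Meg3 reached 2-fold: it was 1.63-fold lower in OP9-DL cells and 1.78-fold lower in OP9-GFP cells than in OP9 cells.

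Counted together over all 10 genes, 4 were higher and 0 lower in OP9-DL cells than in the OP9-GFP line, and 6 lay within 2-fold or were too dim to read. Over all compared probes 5.03% were past 2-fold in this comparison, 2.31% higher and 2.72% lower. The median log2 difference of the 10 genes was 0.18, against -0.01 for all compared probes. On the OP9-GFP array 3 were higher and 2 lower than in OP9 cells, beside 11.6% of compared probes past 2-fold (4.86% higher and 6.75% lower), and the medians were -0.17 and 0.02. On the OP9-DL array 5 were higher and 1 lower than in OP9 cells, beside 11.2% (4.31% higher and 6.91% lower), and the medians were 0.95 and 0.02. The comparisons share arrays, and the genes were picked with these values in view, so nothing is read from the counts.

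Dlk1, Plagl1, Mest and H19 were each at least 2-fold above both other arrays in OP9-DL cells, which held for 0.969% of compared probes. Cdkn1c was at least 2-fold above both others in OP9 cells (3.98%), and Igf2, Plagl1 and H19 were at least 2-fold below both others there (2.2%). Dlk1 was also at least 2-fold below both others in OP9-GFP cells (0.879%), through a reading under the brightness limit, and was not with that reading raised to it. Grb10, Meg3, Peg3 and Ndn stood apart on no array.

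**Figure D2:**
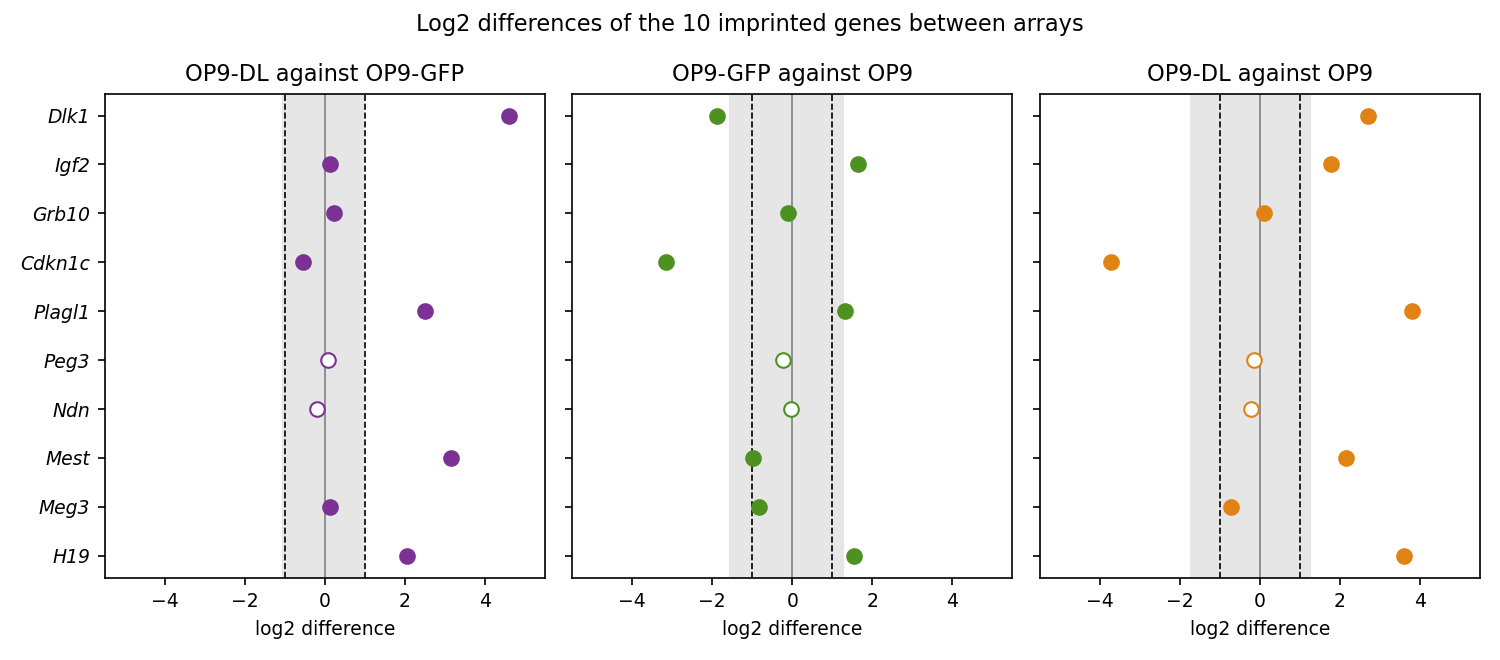
Log2 differences (horizontal axis) of the 10 genes in the 3 comparisons, with filled points for compared genes, open points for Peg3 and Ndn, dashed lines at 2-fold and a grey band for the middle 95% of all compared probes. Dlk1 stood at 4.60 and Mest at 3.15 between OP9-DL and OP9-GFP, or Dlk1 at 3.12 with its dim OP9-GFP reading raised to the brightness limit. Cdkn1c was the lowest against OP9, -3.71 in OP9-DL cells and -3.15 in OP9-GFP cells, or -2.77 in both with their dim readings raised to the limit.

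Each gene rests on 1 probe, so no second probe could be set beside it. Over 129 other genes with several compared probes, the log2 differences of a gene's probes correlated with r = 0.04 for OP9-DL against OP9-GFP, 0.51 for OP9-GFP against OP9 and 0.51 for OP9-DL against OP9. This r is a description across genes that share the same arrays. Of 11 such genes with a probe past 2-fold between OP9-DL and OP9-GFP, the probes shared a sign in 6 and were both past 2-fold in 0. This limit applies to Dlk1, Plagl1, Mest and H19 as well.

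The genes whose pattern over the 3 arrays was most like each of these were found by the root mean square distance of mean-centred log2 values among compared probes with a symbol. Nearest to Dlk1 were Odf3l1 (distance 0.18), Akr1c13, Rab6b, Alcam and Tmem176b (0.46). Odf3l1 had 37.0 in OP9-DL cells, 1.8 in OP9-GFP cells and 4.9 in OP9 cells, and Alcam, an adhesion molecule, had 58.4, 5.1 and 13.9. Akr1c13 has close paralogues whose transcripts its probe may also bind. Alcam was also among the 5 nearest to Mest, after Gimap6 (0.12) and before Car6, Cdh2 and Trib3 (0.31).

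H19 and Plagl1 were near each other. H19 was the nearest of all named probes to Plagl1, at a distance of 0.18, followed by Aldh1a7, Igf1, Fhod3 and Cldn11 (0.34). Igf2 and Cdkn1c, the other genes named above as acted on by Plagl1, lay farther from it, at 1.05 and 3.09. Whether Plagl1 acts on any of them in these cells was not tested. Aldh1a7 (0.16), Cldn11, Plagl1, Smpd3 and Igf1 (0.27) were the 5 nearest to H19. Aldh1a7 had 154.7 in OP9-DL cells, 34.6 in OP9-GFP cells and 15.4 in OP9 cells. Dlk1 and Mest lay 0.60 apart, where Mest was number 9 in order of nearness among 11494 probes. With 3 arrays many probes share a pattern, and the distances describe these arrays alone. Readings under the brightness limit entered the distances as deposited, as for Dlk1 in OP9-GFP cells and Cdkn1c in both lines with GFP. The distances were not taken again with dim readings raised to the limit.

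The 5 nearest to Igf2 were Ddah1 (0.06), Odf3, Ramp2, Msrb3 and Myc (0.09). Myc, a transcription factor that drives growth, had 351.4 in OP9-DL cells, 313.2 in OP9-GFP cells and 113.9 in OP9 cells. The 5 nearest to Cdkn1c were Ly6f (0.02), Gbp4, 9030619P08Rik, Stac2 and Tmem86a (0.08). Ly6f had 38.6 in OP9-DL cells, 56.9 in OP9-GFP cells and 522.8 in OP9 cells, and Gbp4, a guanylate-binding protein induced by interferon, had 2.7, 4.4 and 37.4 by the probe nearest to Cdkn1c.

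The neighbours of these genes were taken in the gene order of RefSeq. Of 29 comparable neighbours, 3 were higher and 0 lower in OP9-DL cells than in the OP9-GFP line, with a median log2 difference of 0.14, beside 2.31% higher and 2.72% lower over all compared probes. Against OP9 cells, 2 were higher and 3 lower in OP9-GFP cells (median -0.06), beside 11.6% of all compared probes past 2-fold, and 3 were higher and 1 lower in OP9-DL cells (median 0.05), beside 11.2%. Beside Dlk1 and Meg3 on chromosome 12, Begain had 7.5 in OP9-DL cells, 6.0 in OP9-GFP cells and 5.4 in OP9 cells. Its OP9-GFP and OP9 readings lay under the brightness limit. Rtl1, an imprinted gene derived from a retrotransposon, stayed below the limit on all 3 arrays with 4.3, 4.2 and 3.0. Farther off, Wars, a tryptophan tRNA synthetase, was 2.03-fold higher in OP9-DL cells than in OP9 cells (233.8, 143.1 and 115.3). Evl, an actin regulator of the Ena/VASP family, was 4.27-fold higher in OP9-DL cells and 4.94-fold higher in OP9-GFP cells than in OP9 cells.

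On distal chromosome 7, H19 and Igf2 lie between Mrpl23 and Ins2 in the measured order. Mrpl23, a mitochondrial ribosomal protein, had 975.2 in OP9-DL cells, 807.3 in OP9-GFP cells and 1455.7 in OP9 cells, and Ins2 had 17.9, 21.1 and 24.3. Tnnt3, the fast muscle troponin T on the far side of Mrpl23, was 2.97-fold higher in OP9-DL cells than on both other arrays (19.9, 6.7 and 6.7). Slc22a18, an imprinted transporter gene next to Cdkn1c, had 57.5 in OP9-DL cells, 16.3 in OP9-GFP cells and 85.0 in OP9 cells, and so was 3.53-fold higher in OP9-DL cells than in the OP9-GFP line and 5.21-fold lower in OP9-GFP cells than in OP9 cells. Cdkn1c was low in both lines with GFP, while Slc22a18 was low in OP9-GFP cells alone. Phlda2, the next imprinted gene, was blank except in OP9 cells, at 2.4.

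**Figure D3:**
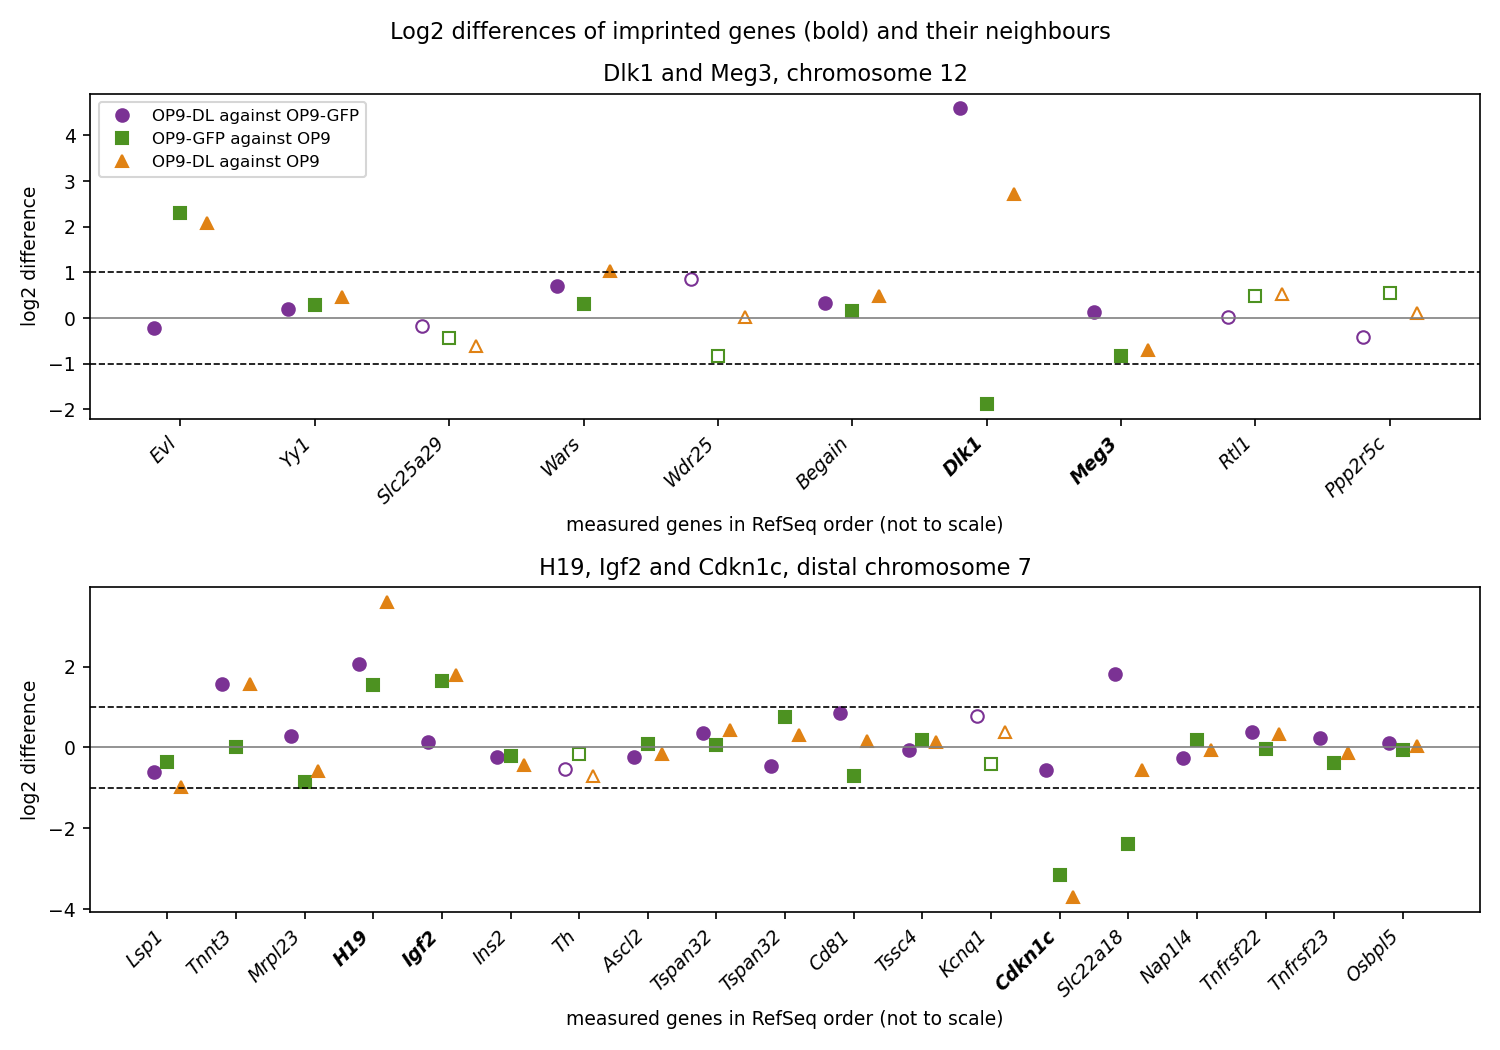
Log2 differences (vertical axis) of the measured genes around Dlk1 and Meg3 and around H19, Igf2 and Cdkn1c, in RefSeq order with even spacing; circles show OP9-DL against OP9-GFP, squares OP9-GFP against OP9, triangles OP9-DL against OP9, open symbols genes below the brightness limit, and bold names the imprinted genes described. Dlk1 reached 4.60 between OP9-DL and OP9-GFP while Begain and Meg3 on either side stood at 0.32 and 0.12. With its dim OP9-GFP reading raised to the brightness limit Dlk1 stood at 3.12. The OP9-GFP and OP9 readings of Begain also lay under that limit.

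Near the other imprinted genes, Copg2, which overlaps Mest, had 39.8 in OP9-DL cells, 35.0 in OP9-GFP cells and 61.0 in OP9 cells, and Cep41 on the other side had 18.2, 19.7 and 23.1. Beside Plagl1, Sf3b5 had 1458.8, 1916.9 and 1382.3 on the same arrays and Ltv1 had 24.9, 23.4 and 15.1, while Fuca2, a fucosidase, was 2.12-fold lower in OP9-GFP cells than in OP9 cells. Near Grb10, Fignl1, a recombination factor, was 2.16-fold higher in OP9-GFP cells than in OP9 cells.

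Other imprinted genes were taken from a list of 68 genes reported as imprinted in the mouse, for some only in certain tissues or with disputed evidence. Of these 51 had a probe and 34 were compared. Several are also among the neighbours counted above, such as Slc22a18 and Snrpn, so the counts of these lists share probes. On the OP9-DL array 3 were higher and 1 lower than in OP9-GFP cells, beside 5.03% of all compared probes past 2-fold. On the OP9-GFP array 2 were higher and 5 lower than in OP9 cells, beside 11.6%, and in OP9-DL cells 1 was higher and 4 lower than in OP9 cells, beside 11.2%. The medians in the 3 comparisons were 0.02, -0.02 and -0.01.

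Snrpn, a splicing factor gene of the imprinted domain that also holds Ndn, had 104.0 in OP9-DL cells, 42.4 in OP9-GFP cells and 247.3 in OP9 cells. It was 2.45-fold higher in OP9-DL cells than in the OP9-GFP line, and 5.83-fold lower in OP9-GFP cells than in OP9 cells. Like Dlk1, Mest and Slc22a18, Snrpn had its lowest reading in OP9-GFP cells. Slc38a4, an imprinted amino acid transporter gene, had 120.3 in OP9-DL cells, 58.7 in OP9-GFP cells and 21.1 in OP9 cells, in the same order of arrays as H19 and Plagl1.

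Sgce, the paternally read sarcoglycan epsilon, was highest on the parental array, with 152.9 in OP9-DL cells, 239.9 in OP9-GFP cells and 848.1 in OP9 cells. Pon3, a paraoxonase of the same imprinted cluster, was likewise 2.70-fold lower in OP9-DL cells and 2.71-fold lower in OP9-GFP cells than in OP9 cells. Trappc9, a subunit of a vesicle tethering complex, was 2.07-fold lower in OP9-GFP cells than in OP9 cells. Airn, the noncoding RNA that runs over Igf2r, was 2.21-fold higher in OP9-GFP cells than in OP9 cells, while Igf2r itself stayed within 2-fold in each comparison. Kcnk9, a potassium channel gene, had 4.8, 5.2 and 9.8 on the OP9-DL, OP9-GFP and OP9 arrays, at the edge of the limit. Commd1 was counted as lower in OP9-DL cells than in the OP9-GFP line through 1 probe (11.1 against 51.8), while its other, brighter probe read 710.7 against 994.5.

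**Figure D4:**
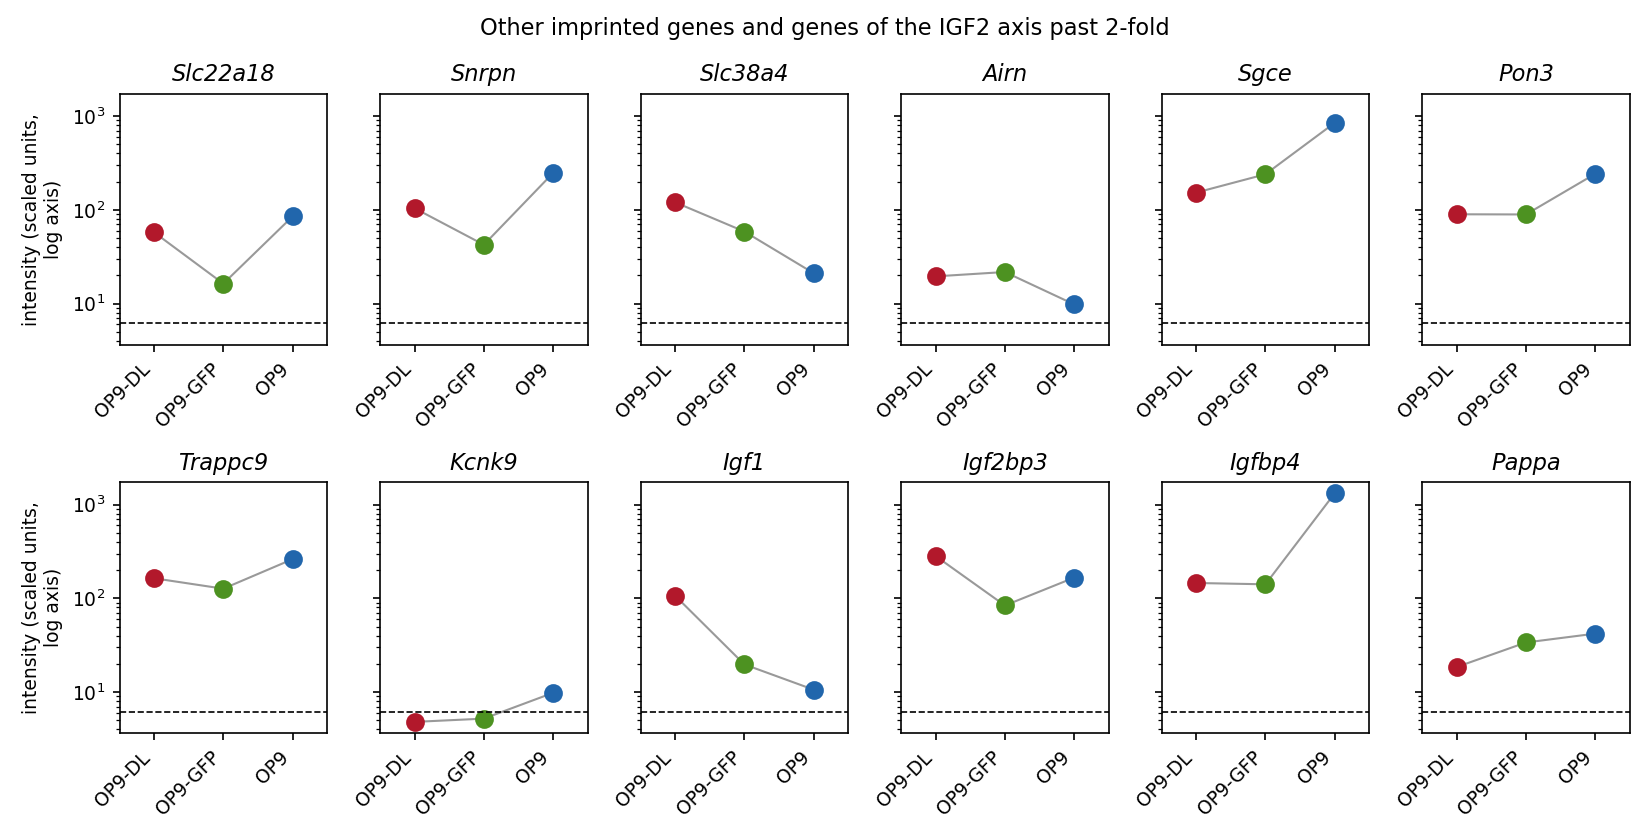
Intensity (scaled units, log axis) of 8 other imprinted genes and 4 genes of the IGF2 axis on the OP9-DL, OP9-GFP and OP9 arrays, 1 point per array, with the brightness limit dashed. Slc22a18, Snrpn and Igf2bp3 were lowest in OP9-GFP cells, Slc38a4 and Igf1 followed the order of H19 and Plagl1, and Sgce and Igfbp4 were highest in OP9 cells.

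Genes around IGF2 signalling were looked at through a list of 16, of which 11 were compared. On the OP9-DL array 2 were higher and 0 lower than in OP9-GFP cells, with a median of 0.18, beside 5.03% of all compared probes past 2-fold. Against OP9 cells, 0 were higher and 1 lower in OP9-GFP cells (median -0.11, beside 11.6%), and 1 was higher and 2 lower in OP9-DL cells (median 0.12, beside 11.2%). Igf1, which like Igf2 encodes a ligand of the IGF1 receptor, had 106.5 in OP9-DL cells, 19.7 in OP9-GFP cells and 10.6 in OP9 cells. Igf2bp3, an RNA-binding protein that binds Igf2 mRNA, had 282.5, 83.9 and 166.3 on the same arrays, so that it was 3.37-fold higher in OP9-DL cells than in the OP9-GFP line. The receptors were close: Igf1r had 104.7, 92.5 and 84.3, and Igf2r, which clears IGF2 and is itself imprinted, had 38.2, 25.8 and 38.3.

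Igfbp4, an IGF-binding protein, had 145.9 in OP9-DL cells, 141.2 in OP9-GFP cells and 1318.9 in OP9 cells. Pappa, the protease that cleaves it, was 2.27-fold lower in OP9-DL cells than in OP9 cells (18.5, 33.8 and 42.0). Pappa and Irs2, an adaptor of the insulin receptor (298.5, 382.6 and 412.5), had the lowest differences of the list between OP9-DL and OP9-GFP cells, -0.87 and -0.36 on the log2 scale.

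DLK1 is shed by ADAM17 and holds back fat cell genes in preadipocytes. Of 14 comparable genes of this list, 0 were higher and 2 lower in OP9-DL cells than in the OP9-GFP line, with a median of -0.15, beside 2.31% higher and 2.72% lower over all compared probes. Adipoq, the fat cell hormone adiponectin, had 146.7 in OP9-DL cells, 495.9 in OP9-GFP cells and 29.0 in OP9 cells, and Cfd, adipsin, had 43.1, 399.5 and 17.0. Against OP9 cells, 3 genes of the list were higher and 1 lower in OP9-GFP cells (median -0.26, beside 11.6% of probes past 2-fold), and 3 were higher and 2 lower in OP9-DL cells (median -0.20, beside 11.2%). For Adipoq and Cfd the OP9-GFP array was highest, the array on which Dlk1 was lowest through a reading under the brightness limit. Against OP9 cells, Adipoq was 5.06-fold and Cfd 2.54-fold higher in OP9-DL cells, where Dlk1 was 6.57-fold higher as well. A link of these genes with Dlk1 was not tested. Fabp4, a fatty acid carrier of fat cells, was not highest in OP9-GFP cells, with 8539, 8033 and 9436. Nor was Pparg, the main fat cell regulator, with 2035, 1242 and 2444. Sox9, a transcription factor held up by DLK1 in preadipocytes, had 32.4, 21.6 and 35.5, and Adam17 had 69.9, 92.0 and 91.6. Hes1, a target of Notch, had 112.3 in OP9-DL cells, 176.9 in OP9-GFP cells and 55.9 in OP9 cells. Lpl, the lipase of mature fat cells, had 422.1, 682.6 and 1855, and so was highest in the parental line, as was Cebpb, an early fat cell regulator, with 610.6, 917.4 and 1465.

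Of 14 compared enzymes and binding proteins that keep imprints, 0 were past 2-fold in each of the 3 comparisons, beside 5.03%, 11.6% and 11.2% of all compared probes in the order OP9-DL against OP9-GFP, then OP9-GFP and OP9-DL against OP9. The medians were 0.06, 0.27 and 0.31. Eed, a subunit of the Polycomb complex that methylates histone H3, came nearest to the threshold, with 829.4 in OP9-DL cells, 653.4 in OP9-GFP cells and 421.9 in OP9 cells, which is 1.97-fold higher in OP9-DL cells than in OP9 cells. Dnmt1, which copies DNA methylation, had 455.5 in OP9-DL cells, 481.0 in OP9-GFP cells and 346.5 in OP9 cells, and its partner Uhrf1 had 1176, 1001 and 745.3. Mbd3 and Dppa3 had the highest differences between OP9-DL and OP9-GFP cells, 0.38 and 0.35 on the log2 scale, and Arid4b and Ezh2 the lowest, -0.39 and -0.30. DNA methylation itself was not analysed here.

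Of 9 compared relatives and partners of p57, 0 were past 2-fold between OP9-DL and OP9-GFP cells, with a median of 0.21, beside 5.03% of all compared probes. Cdkn1a and Cdk4 had the highest log2 differences in that comparison, 0.63 and 0.57, and Ccne2 and Ccne1 the lowest, -0.47 and -0.19. Cdkn1a, which encodes p21, had 487.2 in OP9-DL cells, 315.7 in OP9-GFP cells and 470.4 in OP9 cells, and Cdkn1b, which encodes p27, had 11.1, 11.7 and 7.8. Neither had the pattern of Cdkn1c. Against the OP9 array, Ccne2, cyclin E2, was 2.93-fold higher and Ccnd2, cyclin D2, 2.36-fold lower in OP9-GFP cells, and Cdk2 was 2.84-fold and Ccne2 2.12-fold higher in OP9-DL cells, beside 11.6% and 11.2% of all compared probes past 2-fold in these comparisons.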

How the data were processed

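The authors deposited 1 table of linear probe intensity, with 1 column per array, and scaled it so that the median probe stands at 20 on each array, as the values show. Per the labels' protocols, total RNA was amplified to amino allyl RNA and coupled to Cy5. What scanner, background correction and rule for blank cells (6.32% to 6.62% of 23473 probes) were used was not stated in the labels or the file header. Gene names came from the annotation table of the platform (16631 with 1 symbol, 6842 with none), and 3947 symbols were updated through RefSeq (GRCm38.p6). Deposited intensities were used without further scaling, log2 was taken with no constant, and 20775 probes had a value on all 3 arrays. Several probes of a gene were averaged on the log2 scale.

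No test was possible with 1 array per line, and the number of arrays limits the precision. Genes were named by a rule: Dll1, every member, every other imprinted or neighbouring gene past 2-fold, the 2 highest and 2 lowest of the other lists, and the 5 genes nearest in pattern to a member past 2-fold; some neighbours and list members within 2-fold, and markers, were named after their values were seen. Members and the 9 lists were chosen with earlier results of these data known. In OP9-DL cells against the OP9-GFP line, 2 of 10 compared stromal markers (Col3a1 and Cxcl12) were lower and 0 higher (Kitl and Vcam1 highest, within 2-fold). For blood markers, 2 of 8 (Tpsab1 and Cd48) were higher and 0 lower (Cd14 and Cpa3 lowest, within 2-fold). Past 2-fold were 0 of 2 endothelial and epithelial markers (Cdh1 and Kdr). Over all compared probes 2.31% were higher and 2.72% lower in this comparison. Alternatives were quantile and lowess scaling (span 0.3), other brightness limits, a constant of 2.2, filled blanks, other thresholds, the brightest probe per gene and, added after the data were seen, dim readings raised to the limit. The counting was tested on simulated arrays. Python 3.11.15, numpy 2.4.6, pandas 2.3.3, statsmodels 0.14.6 and matplotlib 3.10.9 were used.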

Additional observations from a re-analysis of the deposited data

How the results depend on the processing

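All 15 member differences past 2-fold kept their sign and stayed past 2-fold under quantile and lowess scaling and the added constant. With dim readings raised to the limit 14 did, and Dlk1 in OP9-GFP against OP9 (-0.40) did not. Dropping the brightness limit, filling blanks and taking the brightest probe per gene left these differences unchanged by construction. Each member has 1 probe, with a value on every array, so these settings are no check of them. With the constant, the log2 difference of Dlk1 was 3.65 for OP9-DL against OP9-GFP and -1.23 for OP9-GFP against OP9. A limit at the 50th percentile left 4 of the members, Plagl1, Mest, Meg3 and H19. Dlk1, Igf2, Grb10 and Cdkn1c fell below it, so only 8 of the 15 differences could be compared, and these 8 stayed past 2-fold. Of the 4 members left, 2 were past 2-fold in OP9-GFP against OP9 and 3 in OP9-DL against OP9. Of the 10388 probes compared there, 549 were higher and 753 lower in the first of these, and 434 and 766 in the second. At 3-fold, 3 of 8 compared members passed in OP9-GFP against OP9, beside 189 higher and 368 lower of 15581 compared probes. Of 34 other imprinted genes compared, 7, 13 and 10 passed at 1.5-fold and 1, 3 and 2 at 3-fold. The order is OP9-DL against OP9-GFP, then OP9-GFP and OP9-DL against OP9. In that order, 1206, 2173 and 2058 of 15581 compared probes were higher at 1.5-fold and 1313, 2401 and 2435 lower. At 3-fold, 110, 189 and 216 of them were higher and 165, 368 and 440 lower. Fewer genes compared or another threshold is the construction of these last alternatives. No paired analysis was possible because each line has 1 array. Dlk1, Igf2, Grb10 and Cdkn1c each had a reading under the brightness limit on at least 1 array.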
